A study of Mus musculus with 2 samples.

Results

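The 50 genes described here build, regulate or run on the neuronal cytoskeleton: tubulins, microtubule-associated proteins (MAPs), stathmins, intermediate filaments, growth cone proteins, motors and severing enzymes. They were chosen by symbol, and all 145 probe sets whose platform annotation gives 1 of these symbols and no other were used, of 45037 probe sets for 18193 genes on the array. All 50 symbols were found. Gene expression had been measured in Neuro2a cells, a mouse neuroblastoma line that grows neurite-like processes, on 1 Affymetrix array for cells transfected with control siRNA (siControl) and 1 array for cells transfected with siRNA against Cpeb1 (siCPEB1). Both cultures were labelled as treated for 24 h, and 100 ng of total RNA was labelled for each array. This is a transient knockdown in 1 line with no replicate culture, so a ratio cannot be told apart from the difference between any pair of cultures, and no p-value is given. Arrays for FMR1 knockdown were not analysed here. The study used knockdown of CPEB1, of FMR1 and of both to look at gene expression in a cell model of fragile X syndrome, and the comparison here is that of CPEB1 knockdown with control cells. In bulk RNA, fewer cells that express a gene and less RNA per cell cannot be told apart.

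Microtubules are hollow polymers of alpha- and beta-tubulin dimers. MAPs such as tau and MAP2 stabilise them, stathmins bind free dimers and favour disassembly, katanin and spastin cut the polymer, and kinesins and dynein carry cargo along it. Neurons add a separate network of intermediate filaments, whose make-up differs between neuron types. CPEB1 binds U-rich cytoplasmic polyadenylation elements near the 3′ end of mRNAs, controls their poly(A) tails and translation, and is a component of granules that motors move along dendritic microtubules. An array of this kind reads RNA level, and neither tail length nor protein.

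The values are MAS5 signals, a background-corrected brightness per probe set on a linear scale, and they can be compared between the arrays but not between genes. A probe set counted as measured when its signal was at or over the array median (21.0 in siControl and 21.6 in siCPEB1) in 1 array or both, with no array under its 25th percentile (5.07 and 5.62). Log2 ratios, siCPEB1 over siControl, were shifted for the difference between the array medians (-0.04), and folds are on the same shifted scale. Each gene was represented by 1 probe set, by preference not one marked _x_at or _s_at, whose probes can bind other transcripts, and otherwise the brightest. Cpeb1 itself, the targeted gene, had signals of 302 and 38.5 and was 8.08-fold lower. For Gapdh, 3-prime probes had 0.798 times the signal of 5-prime probes in siControl and 0.782 times in siCPEB1, a measure of RNA degradation, and for Actb the ratio was 1.27 and 1.35. Of 15 markers of sympathetic neuroblastoma cells, 12 were measured, and their summed signal was 9406 in siControl and 14606 in siCPEB1. The transcription factors Isl1, Gata3, Mycn and Phox2a and the enzyme Ddc were past 2-fold higher in this list. These are 5 of 12, beside 4.54% of all 11554 measured genes. Above 0 were 10 of the 12, beside 5826 of the 11554. Those below 0 were Gata2 (log2 ratio -0.53) and Insm1 (-0.50), while Elavl4 (0.20) and Hand2 (0.30) were among those closer to 0, and Th was too dim to be measured. Of 9 fibroblast, 9 glial, 8 haematopoietic and 6 endothelial markers, 3, 1, 2 and 1 were measured, with summed signals of 165 and 376, 23.0 and 45.4, 49.1 and 66.0, and 35.9 and 58.9 in siControl and siCPEB1. Within these lists Col1a2 (42.3 and 309) and Tyrobp (9.62 and 22.8) were higher and Pdgfrb (97.1 and 26.9) lower past 2-fold. Csf1r was nearly level (39.5 and 43.1, log2 ratio 0.09), and Gfap, Col1a1, Ptprc and Cdh5 were too dim to be measured. The part of these differences in the ratios below was not tested.

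Of the 50 genes 43 were measured, and the representative probe set of each of the 43 reached the median of both arrays. No gene was past 2-fold higher, and 2 were past 2-fold lower, the intermediate filament gene Prph and the tau gene Mapt. Across all 11554 measured genes, 4.54% were higher and 3.89% lower by more than 2-fold, and 4.65% of the 43 were lower, so the lower count is close to that of the array. Over the 43 genes the median log2 ratio came to -0.08, against 0.0049 for all genes (-0.09 and 0.02 with no filter), and 33 of the 43 (76.7%) had a log2 ratio within 0.5 of 0, a share near the 69.8% of all genes. Of the other 10, 4 were above 0.5 (Tuba4a, Ina, Kif1b and Clip1) and 6 were below -0.5 (Prph, Mapt, Kif5a, Tubb6, Nes and Map4). Counted as probe sets, 115 of 145 passed the filter, of which 3 were higher and 4 lower by more than 2-fold, against 4.10% and 4.54% of all 23655. The 3 higher ones belonged to Dclk1 and Spast, and the 4 lower ones to Mapt, Prph and Marcks.

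**Figure D1:**
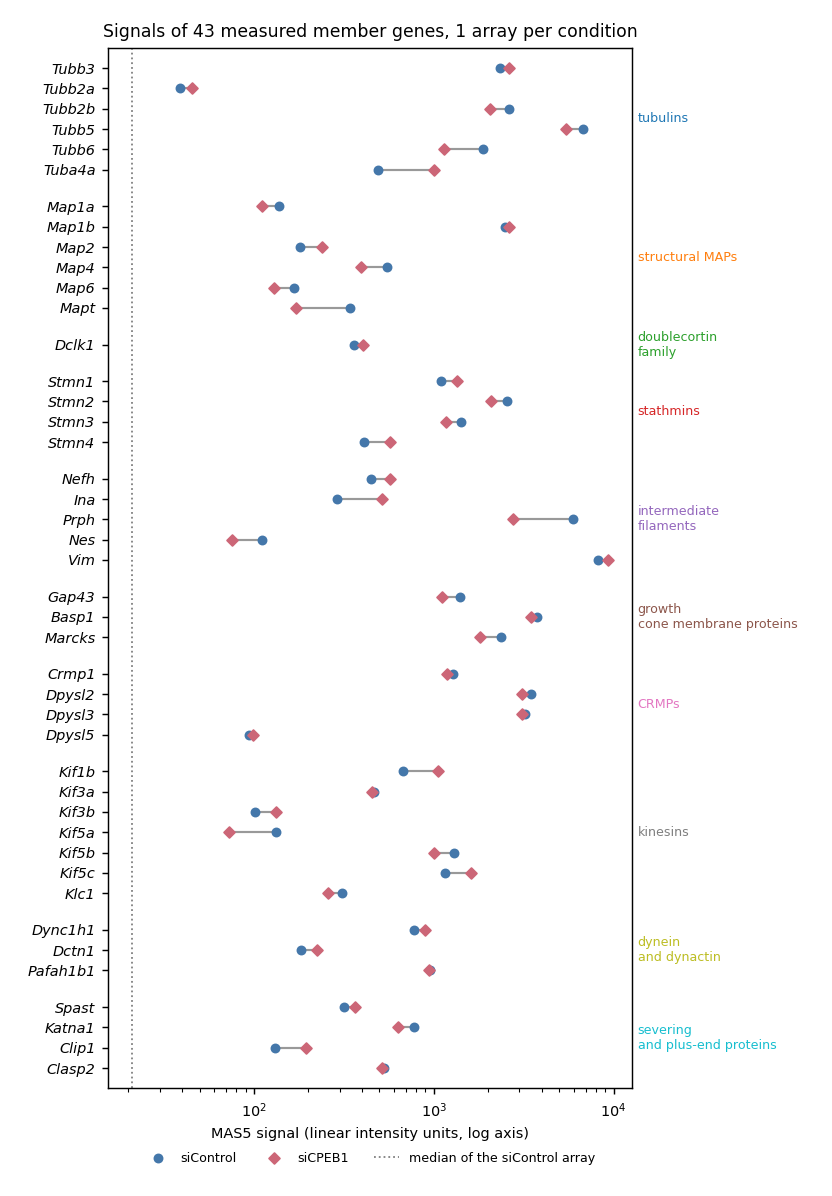
MAS5 signal (log axis) of the representative probe set of each of the 43 measured genes in siControl (blue circles) and siCPEB1 (red diamonds), grouped by role; the dotted line is the median of the siControl array. Each symbol is 1 array, signals of different genes cannot be compared, and the longest lines are those of Prph, Mapt and Tuba4a.

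Where a gene had several probe sets, they serve as a technical check within the same RNA. Of the 43 genes, 34 had at least 2 passing probe sets, and in 25 all of these had the same sign, 11 above and 14 below 0. The share of all genes with 1 sign was not computed, so whether 25 is many or few cannot be said. The pooled SD between probe sets of 1 gene was 0.38 on the log2 scale for the 34 genes and 0.37 over 5531 genes of the array. The spread between cultures is in neither value.

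**Figure D2:**
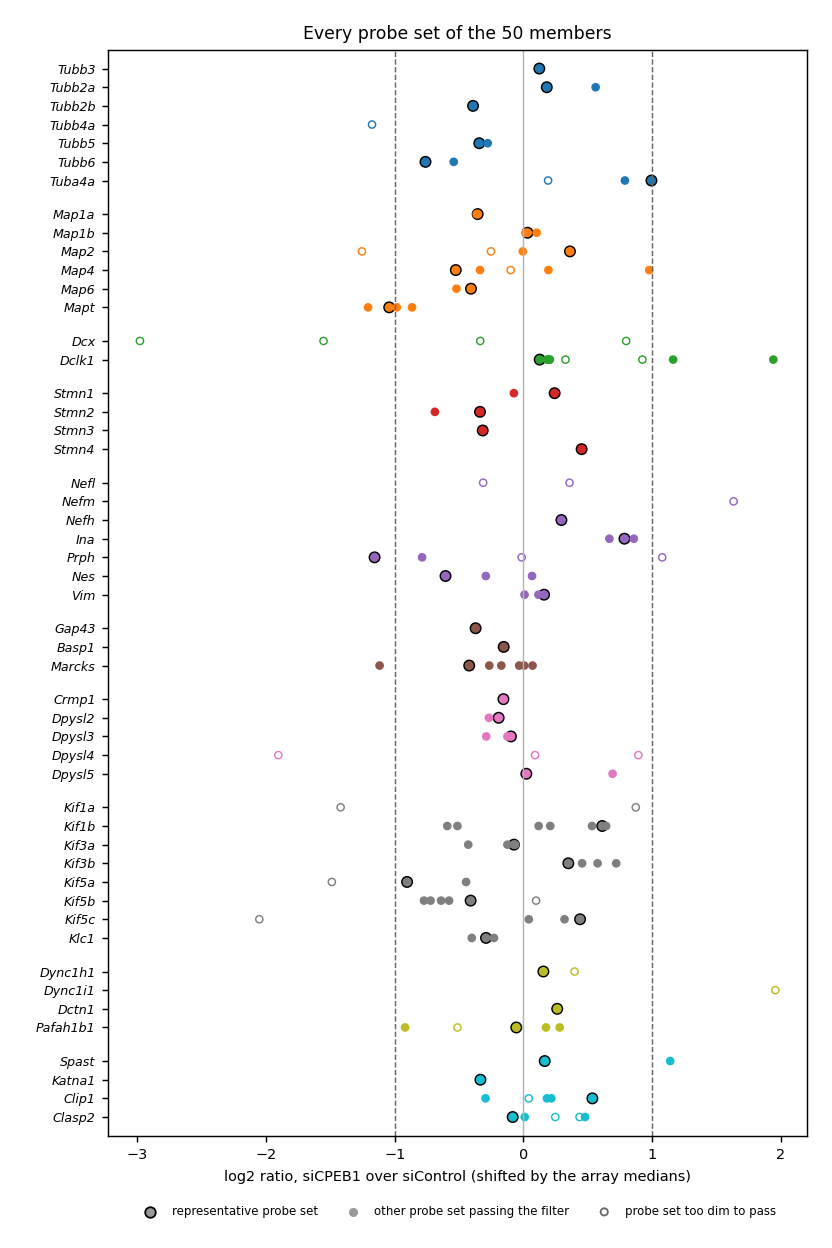
Log2 ratio of siCPEB1 over siControl for all 145 probe sets of the 50 genes, with dashed lines at 2-fold. Filled points passed the signal filter, black rims mark the representative probe set and open circles were too dim. The filled points of Mapt, Ina and Kif5b lie close together, and those of Dclk1, Map4 and Spast lie apart.

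The start regions of 4 of these genes are shown because their values carry main contrasts below: Prph was lower, Ina and Tuba4a were higher, and the probe sets of Dclk1 disagreed. Mapt, also past 2-fold lower, is left out because no start region was available for it. Each run holds the 250 bases before the annotated transcription start, 5′ to 3′ on the strand of the gene, from the RefSeq table for GRCm38.p6. Capitals mark matches on either strand. One motif searched was TATAAA, the core letters of many start sites. Another was GGGCGG, known as the GC box. The last was CCAAT, bound by widely expressed factors. The windows are chr15:99054924-99055173 on the plus strand for Prph, chr19:47014431-47014680 on the plus strand for Ina, chr1:75219295-75219544 on the minus strand for Tuba4a, and chr3:55242114-55242363 and chr3:55461478-55461727 on the plus strand for Dclk1, which has an upstream and a downstream start in the table. The table's starts of Prph and Tuba4a, and both starts of Dclk1, lie inside the annotated spans of these genes.
Prph: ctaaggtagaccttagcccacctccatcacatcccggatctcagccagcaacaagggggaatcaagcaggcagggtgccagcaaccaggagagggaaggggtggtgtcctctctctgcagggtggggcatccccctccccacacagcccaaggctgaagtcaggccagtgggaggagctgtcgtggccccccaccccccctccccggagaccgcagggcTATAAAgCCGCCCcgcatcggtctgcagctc
Ina: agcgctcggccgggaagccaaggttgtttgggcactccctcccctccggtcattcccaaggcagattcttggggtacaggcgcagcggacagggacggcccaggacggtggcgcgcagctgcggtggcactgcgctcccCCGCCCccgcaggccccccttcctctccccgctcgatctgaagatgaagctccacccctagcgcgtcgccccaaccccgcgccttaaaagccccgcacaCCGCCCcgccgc
Tuba4a: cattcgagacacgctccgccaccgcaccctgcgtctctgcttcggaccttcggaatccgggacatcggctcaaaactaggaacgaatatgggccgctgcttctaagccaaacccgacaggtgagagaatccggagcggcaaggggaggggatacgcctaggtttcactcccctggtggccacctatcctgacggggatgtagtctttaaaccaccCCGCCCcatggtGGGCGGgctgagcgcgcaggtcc
Dclk1 upstream start: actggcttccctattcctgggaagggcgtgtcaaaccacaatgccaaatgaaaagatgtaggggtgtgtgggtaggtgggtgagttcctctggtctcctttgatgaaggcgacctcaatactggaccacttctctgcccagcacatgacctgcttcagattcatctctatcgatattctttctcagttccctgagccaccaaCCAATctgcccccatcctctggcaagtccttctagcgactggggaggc
Dclk1 downstream start: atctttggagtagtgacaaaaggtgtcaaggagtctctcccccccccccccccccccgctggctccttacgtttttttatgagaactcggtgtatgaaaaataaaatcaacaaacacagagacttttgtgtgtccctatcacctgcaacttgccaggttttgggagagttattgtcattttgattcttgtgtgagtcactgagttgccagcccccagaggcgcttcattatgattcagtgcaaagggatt

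In these letters, the Prph window held TATAAA 31 bases before the start with a GC box next to it, those of Ina and Tuba4a held 2 GC boxes each, and the upstream Dclk1 window held 1 CCAAT. The table had windows for 32 of the 50 genes, 41 in all. Of these, 8 (19.5%) held TATAAA, against 12.4% of all 32851 windows. For GGGCGG it was 22 (53.7%), against 32.7% of all windows. For CCAAT it was 14 (34.1%), against 33.8%. A match describes the letters alone, and no binding was measured.

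Among the tubulins, the alpha isotype Tuba4a lay farthest from 0. Its signal went from 493 in siControl to 1011 in siCPEB1 at 1 probe set, which is 1.99-fold higher, and from 275 to 488 at a second, 1.73-fold higher. Another, with signals of 3.84 and 4.51, was too dim to be measured. Tuba4a stands just under the 2-fold line, and without the shift, with quantile normalization, with loess or with the shift set by the passing probe sets it was past it (log2 ratios up to 1.05). TUBA4A is an alpha-tubulin isotype whose gene encodes no terminal tyrosine. Tubb6, a beta isotype widely made outside neurons, had signals of 1890.1 and 1147 and was 1.69-fold lower, with 1.46-fold at a dim second probe set (25.7 and 18.1).

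The other measured beta isotypes differed less at their representative probe sets. Tubb3, the class III isotype used as a neuronal marker, had signals of 2341 and 2623 (log2 ratio 0.12). Tubb5, the common beta-tubulin of dividing cells, had signals of 6736 and 5461 (-0.34, and -0.28 at its second probe set). Tubb2b had signals of 2619.9 and 2054 (-0.39), and a probe set shared with a Tubb2a pseudogene, not counted here, gave 832 and 687 (-0.32). For Tubb2a the choice of probe set decided the size: the specific one was dim, with signals of 38.9 and 45.4 (0.18), whereas the _s_at probe set, which may bind related tubulins, had 1136 and 1723 (0.56). Tubb4a, with signals of 17.8 and 8.10, was not measured. The median log2 ratio of the 6 measured tubulins was -0.11.

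Of the structural MAPs, 4 of 6 were below 0, as were 49.6% of all genes, and the median log2 ratio was -0.38. Averaging the passing probe sets of each gene, which takes Map4 to 0.08, gave 3 of 6 and -0.15. Mapt encodes tau, which binds axonal microtubules. It had signals of 344 and 172 at 1 probe set, 232 and 120.4 at the next, 203 and 115 at another, and 109 and 48.7 at the dimmest. All 4 probe sets were thus lower in siCPEB1, by 2.06-, 1.98-, 1.82- and 2.31-fold, and the SD between them was 0.14 on the log2 scale. Mapt lies on chromosome 11 of GRCm38.p6, from 104229409 to 104332090. When 16 was added to both signals Mapt was no longer past 2-fold, with a log2 ratio of -0.98.

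Map2, the dendritic MAP, had signals of 181 and 239 (log2 ratio 0.36) at 1 probe set and 52.7 and 54.0 (-0.0049) at another, while 2 more were too dim. The large MAPs Map1b and Map1a differed from each other. The 3 probe sets of Map1b had log2 ratios from 0.02 to 0.10, with signals of 2486 and 2614 at the brightest. Both of Map1a were at -0.36 (138 and 111 at the brighter). Map6, which makes microtubules resistant to cold, had signals of 168 and 130.3 (-0.41) and was lower at its second probe set too (-0.52). For Map4, the main MAP of cells other than neurons, the probe sets pointed both ways. The brightest went from 552 to 394 (-0.53) and the next from 252 to 205 (-0.34), whereas a dim one went from 12.9 to 26.1 (0.98), and the mean of the 4 was 0.08.

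The doublecortin family gave the widest disagreement inside 1 gene. Dclk1 encodes a kinase whose long form carries the tubulin-binding doublecortin domain and whose short form lacks it. Its representative probe set had signals of 359 and 403, and 3 other bright ones had log2 ratios of 0.20 to 0.21, so that 4 probe sets were higher by at most 1.15-fold. One dimmer probe set went from 34.4 to 136.0, which is 3.85-fold higher, and another from 38.9 to 89.6, which is 2.24-fold higher. A seventh, annotated to the same source sequence as the one at 3.85-fold, went from 22.5 to 26.2 (0.18). All 7 measured probe sets were thus above 0, and 2 were past 2-fold. The annotation does not say which start or transcript form each probe set reads. Dcx, doublecortin itself, was not measured, with signals of 7.42 and 6.05, 7.37 and 2.58, 4.41 and 0.574, and 0.791 and 1.42 at its 4 probe sets.

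**Figure D3:**
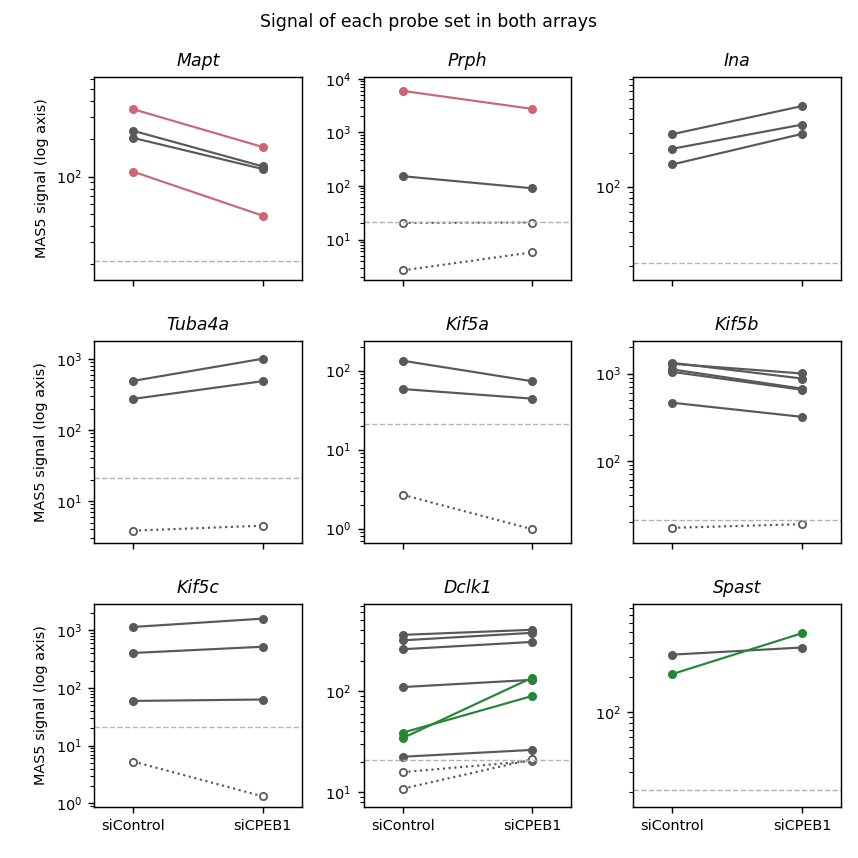
MAS5 signal (log axis, a separate range in each panel) of every probe set of 9 genes in siControl and siCPEB1, 1 array each, joined by a line. Red lines are lower and green lines higher by more than 2-fold, dotted lines with open circles were too dim, and the grey dashed line is the siControl array median; the 4 lines of Mapt and the 3 of Ina run in parallel, while 2 of Dclk1 and 1 of Spast slope upward more than the others.

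Of the 4 stathmins, none was past 2-fold and the median log2 ratio was -0.04. Stmn2, the stathmin of growing axons, had signals of 2556 and 2080.4 (log2 ratio -0.34) and of 674 and 429.9 at its second probe set (-0.69). Stmn3 was at -0.32 and -0.31 (1414 and 1168 at the first). Stmn4 was the highest of the family, with signals of 408 and 574 (0.45) at its 1 probe set. Stmn1, the form of dividing cells, had signals of 1105 and 1345 (0.24) at 1 probe set and 7294 and 7126 (-0.07) at the brighter _s_at one, so its sign depended on the probe set.

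The intermediate filament genes lay on both sides of 0. Prph encodes peripherin, the class III filament of peripheral and sympathetic neurons, and had the lowest ratio of the 43 genes at the representative probe set. Its signals of 5956 in siControl and 2747 in siCPEB1 made it 2.23-fold lower, and a second probe set marked _x_at went from 152 to 90.6, 1.73-fold lower. The remaining 2 had no signal above 20.8 and were not measured. With the mean of both passing probe sets, Prph had a log2 ratio of -0.97 and was no longer past 2-fold. Prph lies on chromosome 15 of GRCm38.p6, from 99053579 to 99058978.

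Ina, which encodes alpha-internexin, a filament of central neurons, was higher at all 3 probe sets. The signals were 291 and 516, 216 and 354, and 157 and 293, which is 1.72-, 1.59- and 1.81-fold higher with an SD of 0.10 on the log2 scale. The heavy neurofilament gene Nefh had signals of 451 and 569.5 (log2 ratio 0.30), while the light and medium neurofilament genes were not measured, Nefl with signals of 8.14 and 6.74 and of 2.16 and 2.85, and Nefm with 2.58 and 8.24. Vim, the filament of mesenchymal and neuroblastoma cells, was bright, with signals of 8155 and 9373 (0.16) and log2 ratios of 0.12 and 0.0089 at its other probe sets. The value of 0.16 depended on the scaling, with 0.33 under loess and 0.39 under quantile normalization. Nes, the filament of neural progenitors, had signals of 112 and 75.5 (-0.61) at 1 probe set, but 65.5 and 70.6 (0.07) and 26.9 and 22.6 (-0.29) at the others.

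The 3 growth cone membrane protein genes were below 0 at the representative probe set, as were 49.6% of all genes, and the CRMPs lay close to 0 there. Gap43, a palmitoylated protein of growing axon tips, had signals of 1406 and 1118 (log2 ratio -0.37), and Basp1, which shares its place under the membrane, had 3761 and 3478 (-0.15). The actin-binding protein gene Marcks had 7 probe sets. The brightest went from 2360.3 to 1813 (-0.42), 5 others lay between -0.27 and 0.07, and 1 marked _x_at went from 63.6 to 30.1, 2.17-fold lower and alone past 2-fold. The median of these 3 genes was -0.37. It was -0.28 with the mean of passing probe sets, -0.30 with loess and -0.31 with quantile normalization. The CRMPs bind tubulin dimers and take part in axon growth and collapse. At the representative probe sets, their 4 measured members stayed between -0.19 and 0.02. Signals there were 1279.6 and 1182 for Crmp1, 3464 and 3118 for Dpysl2, 3238 and 3114 for Dpysl3, and 94.3 and 98.5 for Dpysl5. A dim second probe set of Dpysl5, marked _s_at, went from 21.9 to 36.4 (0.69). The other measured probe sets of Dpysl2 and Dpysl3 lay between -0.29 and -0.12. Dpysl4 was not measured, with signals of 14.6 and 15.9, 10.2 and 2.79, and 1.34 and 2.56.

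The 3 heavy chains of conventional kinesin lay on both sides of 0. Kif5b, the widely expressed form, was lower at all 5 measured probe sets. The signals were 1299.5 and 1006 at the representative one, 1333 and 879.7 at the next and 1119 and 674 at another, and over the 5 the log2 ratio ran from -0.77 to -0.41. Kif5a, a neuronal form, had signals of 133 and 73.2 (1.87-fold lower) and 58.4 and 44.1 (1.36-fold lower). Kif5c, the other neuronal form, had signals of 1151 and 1606 (1.36-fold higher) and 407 and 522 (1.25-fold higher), and was level at a dimmer probe set (59.7 and 63.2). Kif5a and Kif5b were thus below 0 and Kif5c above 0 at every measured probe set. Klc1, the light chain that links these motors to cargo, was below 0 at 3 of 3 probe sets (309 and 260.1 at the brightest, log2 ratio -0.29).

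Among the other kinesins, Kif3b, a subunit of the heterotrimeric kinesin-2, was above 0 at all 4 probe sets (101 and 132 at the representative one), with log2 ratios from 0.35 to 0.72. Its partner Kif3a was below 0 at all 4, with log2 ratios from -0.43 to -0.06 (464 and 453 at the brightest). Kif1b, which carries mitochondria and synaptic vesicle precursors in its different splice forms, had signals of 672 and 1056 (1.53-fold higher) at the brightest of 7 probe sets. Of the 7, 5 were above 0 and 2 below, the latter with 181 and 131 (-0.51) and 32.0 and 21.8 (-0.59). Kif1a, its neuronal relative, was not measured, with signals of 5.74 and 2.21 and of 4.40 and 8.29. The median log2 ratio of the 7 measured kinesin genes was -0.07.

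**Figure D4:**
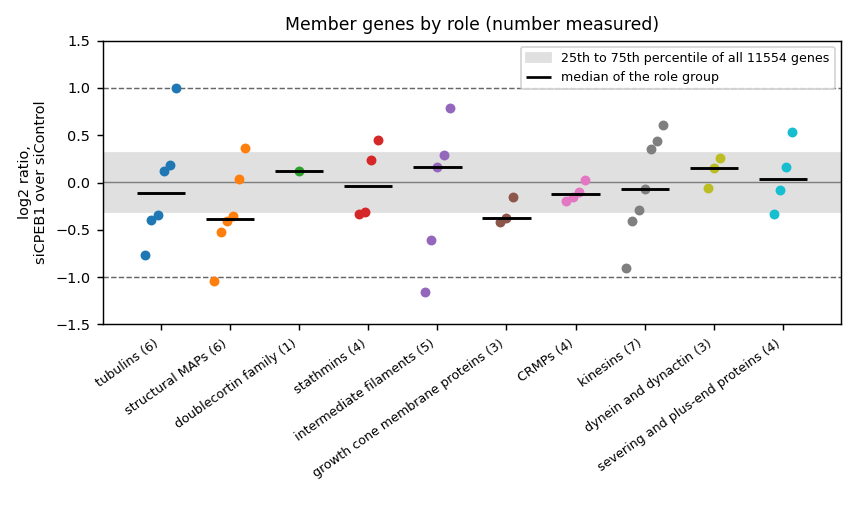
Log2 ratio of siCPEB1 over siControl of each measured gene (points, 1 representative probe set each) by role group, with the number measured in parentheses and the group median as a black bar. The grey band runs from the 25th to the 75th percentile of all 11554 genes (-0.31 to 0.31) and dashed lines mark 2-fold; the medians of the structural MAPs (-0.38) and of the growth cone proteins (-0.37) lie below the band, and those of the other 8 groups inside it.

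The dynein genes were nearly level. Dync1h1, the motor subunit, had signals of 777 and 890.3 (log2 ratio 0.16), Dctn1, the dynactin subunit that holds the microtubule, had 182 and 225 (0.26, and 0.25 at its second probe set), and the dynein regulator Pafah1b1 (LIS1) had 948 and 939 (-0.06), with 0.18 and 0.28 at the next brightest. A dim probe set of Pafah1b1 went from 22.4 to 12.2 (-0.92). The neuronal intermediate chain Dync1i1 had signals of 1.69 and 6.77 and was not measured. Of the enzymes that cut microtubules, Katna1 (katanin) had signals of 779 and 635 (-0.33). Spast (spastin) had 316 and 365 (1.12-fold higher) at the brightest probe set and 214 and 486 (2.21-fold higher) at the other, so both were above 0 and 1 was past 2-fold. Clip1, a plus-end protein, had signals of 131 and 196 (0.54), with 0.22, 0.18 and -0.29 at its other measured probe sets, and Clasp2, which anchors plus ends, had 530.1 and 515 (-0.08), with 0.48 and 0.01 at the others.

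To place the 50 genes among other parts of the cytoskeleton, 120 related genes were listed by function, and 103 of them were measured. No gene was past 2-fold higher, against 4.54% of all genes, and 4 of 103 were past 2-fold lower, a share like the 3.89% of all genes, with a median log2 ratio of -0.01. Dynlt3, a light chain of dynein, was lower at all 4 of its probe sets, with signals of 612 and 181, 455 and 162, 251 and 96.5, and 776 and 262. These are 3.47-, 2.89-, 2.68- and 3.04-fold lower, a lower ratio than at any measured probe set of the 50 genes. Tuba8, a minor alpha-tubulin, had signals of 416 and 180.4 (2.37-fold lower) and 61.7 and 35.6 (1.78-fold lower), the opposite direction to Tuba4a. The kinesin gene Kif21b had signals of 112 and 40.2 (2.86-fold lower) at its 1 measured probe set. Evl, which promotes actin filament growth at the leading edge, had signals of 1101 and 430.1 (2.63-fold lower) and 329 and 169 (2.00-fold lower), and another, dim probe set at 0.21. By list, the medians ran from -0.25 for 6 other intermediate filament genes to 0.16 for 20 other MAPs and plus-end proteins.

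**Figure D5:**
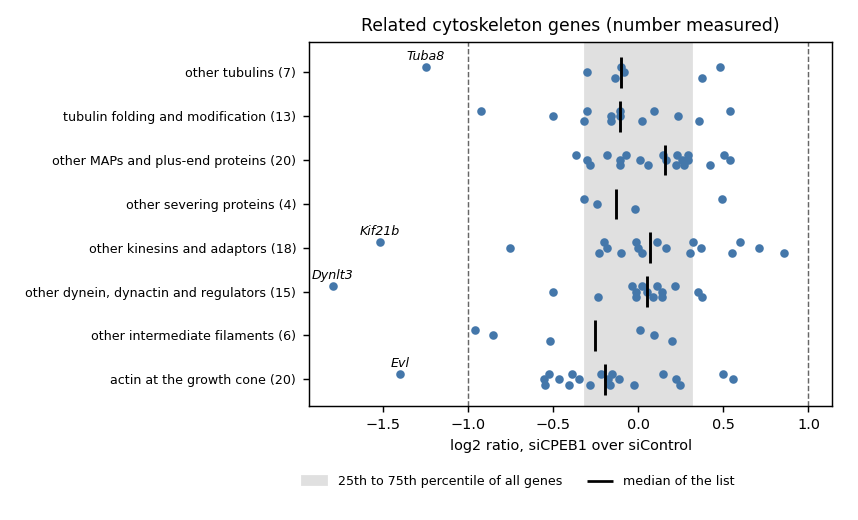
Each point is the log2 ratio (siCPEB1 over siControl) of a measured gene in 1 of 8 related lists, with list medians as black bars, the 25th to 75th percentile of all genes in grey and dashed lines at 2-fold. The 4 genes named lie past the lower line (-1.79 for Dynlt3 to -1.25 for Tuba8), and no gene lies past the upper one.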

How the data were processed

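RNA of siControl- and siCPEB1-transfected Neuro2a cells was measured on 1 Affymetrix Mouse Genome 430 array each. The deposited values are intensities, MAS5 probe set signals that the authors made with Affymetrix Expression Console, per the labels; MAS5 subtracts background and usually scales each array to a common mean; versions and scaling target are not given in the sources used here. Such scaling would hide any change shared by all transcripts. Probe sets were named from the platform annotation and old symbols replaced, by gene identifier, with those of GRCm38.p6: 34945 probe sets had 1 symbol, 932 several and 9160 none listed, and 64 control probe sets were left out. The members and lists were chosen with earlier results of these data known. All 50 members are named; both signals are given for members past 2-fold at any measured probe set, with a log2 ratio over 0.5 in size or among the 2 brightest of a role, and for those too dim, and for related genes past 2-fold. Other related genes in the closing section were chosen after their values were seen. Ratios, the filter and counts were computed with Python 3.11.15, numpy 2.4.6, pandas 2.3.3 and statsmodels 0.14.6 and tested on simulated data. Alternatives were 5 scalings, 16 added to both signals, 3 filters, 3 choices of probe set and a 1.5-fold line. Precision is limited by having 1 array per condition.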

Additional observations from a re-analysis of the deposited data

How the results depend on the processing

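No paired analysis was possible because each condition has 1 array. No setting turned Prph or Mapt to a ratio above 0. Of 43 genes, 41 kept their sign under all 5 scalings, and the exceptions, Dpysl3 and Pafah1b1, were within 0.1 of 0. With 16 added and the 3 choices of probe set included, 38 kept it, since Clasp2, Map4 and Stmn1 also changed sign with another choice of probe set (up to 0.14, up to 0.08 and down to -0.07). The filters were not part of this count. The count of 0 genes higher became 1 (Tuba4a) with no shift, with the shift set by passing probe sets, with quantile normalization and with loess, 2 with no filter (dim Dync1i1 and Nefm) and 3 at 1.5-fold. The count of 2 lower became 1 with 16 added, 1 with the mean of passing probe sets, 4 with no filter and 5 at 1.5-fold. Of all genes, 12.1% were higher and 9.92% lower with no filter, 11.9% and 12.1% at 1.5-fold, 2.28% and 2.26% with 16 added, 4.23% and 3.62% with the mean of passing probe sets, and 2.24% and 3.42% with the strictest filter. Under the 4 scalings that added Tuba4a, 4.58% to 4.96% of all genes were higher. The 3 higher and 4 lower probe sets became 1 and 2 with the strictest filter, 6 and 12 with none and 13 and 16 at 1.5-fold; 5 were higher with no shift and 1 lower with 16 added. The median of tubulins moved to -0.34 with no filter, -0.0055 with loess and 0.0104 with quantile normalization, that of intermediate filaments to 0.33 and 0.34 with the latter pair and to 0.0089 with the brightest probe sets. With no filter the doublecortin family came to -0.10 and the kinesins to 0.14. With the mean of passing probe sets the doublecortin family came to 0.57, the severing and plus-end group to 0.15 and the structural MAPs to -0.15, and 1 related gene was higher. With the brightest probe sets the stathmins came to -0.19. The cause of these moves was not tested, apart from the added, removed or exchanged probe sets that a filter or a probe set rule brings by construction.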

Other observations

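Of 20 actin genes of the growth cone, 15 had a log2 ratio below 0 (median -0.20), beside 49.6% of all genes, and Evl alone was past 2-fold. The count depended on the scaling: with quantile normalization it was 11 (median -0.08) and with loess 12 (median -0.09). Those below 0 included Actg1, a cytoplasmic actin, with signals of 11252 and 9091 (-0.35) at a probe set marked _s_at, which may bind related actins. Cfl1, the actin-severing cofilin, was also below 0, with 1349.5 and 951 (-0.55). Enah, a relative of Evl, had signals of 1798 and 2720.3 (0.56), and Pfn2, the neuronal profilin, had 1753 and 2548 (0.50). Lmna, the A-type lamin of the nuclear envelope, had signals of 989 and 564 (-0.85), and the B-type Lmnb1 had 862 and 895 (0.01). Ttll7, an enzyme that adds glutamate chains to tubulin, had 131 and 71.1 (-0.92). These genes were chosen after their values were seen.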
